A study of Mus musculus with 12 samples.

Results

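Transcripts of 9 leukocyte integrin and adhesion genes were followed in A20 tumors, out of 770 genes counted on the mouse PanCancer Immune panel of nCounter, a method that counts barcoded probes bound to RNA without amplification. The 9 genes were taken by symbol: the integrin subunits Itgb2, Itgal, Itgam, Itgax, Itga4 and Itgae, the adhesion ligands Icam1 and Vcam1, and the selectin ligand Selplg. All 9 were in the table. A20 is a B cell lymphoma line from Balb/c mice, and every tumor came from cultured A20 cells placed under the skin of a female Balb/c mouse (7 to 8 weeks old) with an intact immune system. After about 7 days the tumors were injected 3 times, every other day, with PBS (n = 4), with SE, a stable oil-in-water emulsion given alone (n = 4), or with GLA-SE, 10 µg of the Toll-like receptor 4 agonist glucopyranosyl lipid A in 50 µl of emulsion at 2% (n = 4). Each sample was the tumor of a different mouse, taken 2 h after the last injection, so a single cell line, a single site and a single time stood behind every value.

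Integrins are receptors built of an alpha and a beta subunit that hold cells to one another and to matrix. The beta2 subunit encoded by Itgb2 is found on leukocytes and pairs with the alpha subunits of Itgal (LFA-1), Itgam (Mac-1) and Itgax (CD11c), while Itga4 pairs with the beta1 or beta7 subunit and Itgae with beta7. ICAM-1 is a ligand of LFA-1 and Mac-1, VCAM-1 is a ligand of the alpha4 integrins, and the product of Selplg carries the sugars that selectins bind when leukocytes roll along a vessel wall. Because counts of different probes are not on a common scale, no gene is compared in level with another.

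The total count of a tumor ran from 810260 to 1612415. The values of a tumor were divided by the geometric mean level of 16 reference genes (relative to the 12 tumors), and values below are scaled counts unless named otherwise. SE tumor 4 stood apart, with a scaling factor of 0.496 and with Epcam, an epithelial adhesion gene, at 4339, and 1133 in SE tumor 3, against 113 to 321 in the PBS tumors. Comparisons with SE tumors are therefore also given without it. The 8 B cell markers counted (among them Ms4a1 and Pax5) summed to 14090 to 23283 in the 12 tumors, and none of the 8 had a median under 20 in any group, so markers of the labelled cell type were present throughout. In whole tumors a change in the number of cells of a type cannot be told apart from a change in RNA per cell.

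All 9 genes were higher in GLA-SE tumors than in PBS tumors on reference-scaled counts. The beta2 integrin subunits rose 1.84-fold to 2.97-fold, Itga4 rose 2.32-fold and Itgae 2.12-fold, Selplg rose 2.52-fold, and the ligands Icam1 and Vcam1 rose 2.78-fold and 3.41-fold. In each of the 9, every GLA-SE tumor lay above every PBS tumor. This is to be read against the panel, of which 68.4% was called higher in the same comparison (68.8% in either direction) and 63.7% had GLA-SE tumors wholly above PBS tumors. The median log2 fold change was 1.22 for the 9 genes and 0.90 for the 750 genes tested (edgeR quasi-likelihood test with Benjamini-Hochberg adjustment over the 750). The rise is relative to the reference genes: scaled to the panel median in place of them, none of the 9 was higher and Itgal was lower. On that scale 61 of the 750 genes were called higher and 307 lower.

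**Figure D1:**
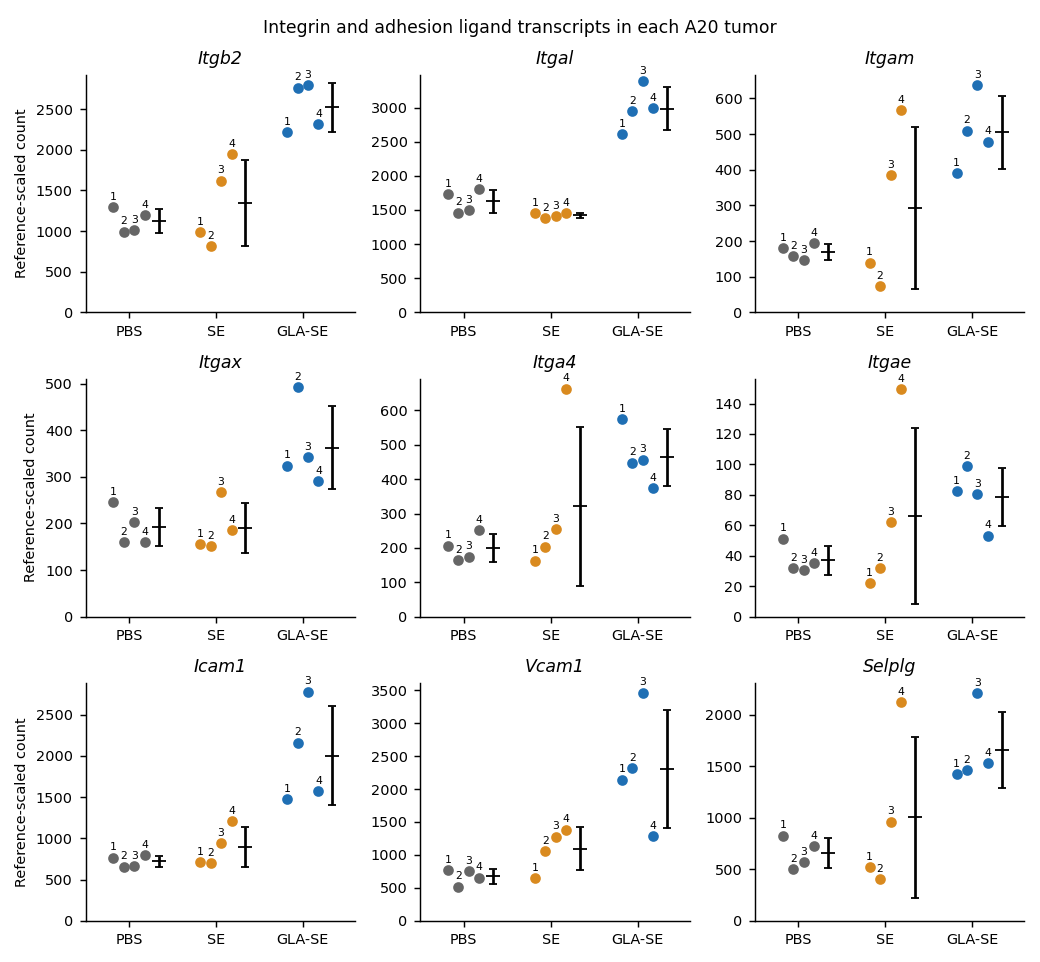
Reference-scaled counts (vertical axes, from 0) of the 9 genes in each A20 tumor injected with PBS, SE or GLA-SE. Points are tumors with their replicate numbers and bars are the mean ± SD (n = 4). The GLA-SE tumors lie above the PBS tumors in all 9 panels on this scaling, and SE tumors 3 and 4 lie above SE tumors 1 and 2 in all but Itgal.

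Itgb2, the subunit shared by the beta2 integrins, was counted at 1289.8, 993, 1015 and 1196 in the PBS tumors and at 2212, 2763, 2798 and 2311 in the GLA-SE tumors. The lowest GLA-SE tumor was well clear of the highest PBS tumor, and log2 counts differed by 1.17 (standard error 0.13, adjusted p = 0.000239).

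Itgal encodes the alpha chain of LFA-1, the main beta2 integrin of lymphocytes. Its counts were 1727, 1462, 1500.1 and 1809 with PBS and 2609.6, 2951, 3383 and 2995 with GLA-SE. The groups were closest at GLA-SE tumor 1 and PBS tumor 4 and did not overlap. Its log2 fold change of 0.88 (adjusted p = 0.000428, standard error 0.12) was the smallest of the 9 and 0.02 under the panel median.

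Itgam encodes the alpha chain of Mac-1 (CD11b), carried by monocytes, macrophages, neutrophils and natural killer cells. It was at 179, 159, 146 and 195 in the PBS tumors and at 391, 509.8, 638 and 479 in the GLA-SE tumors, a mean of 170 ± 21.5 against 504 ± 102 (SD, n = 4). Every GLA-SE tumor held more than any PBS tumor, and GLA-SE tumor 3 held the most. The log2 fold change of 1.57 (adjusted p = 0.000275, standard error 0.18) was the largest among the beta2 subunits. The start of Itgam is shown because it holds the GAGGAA core bound by PU.1, a transcription factor of myeloid cells. The window runs from 250 bases before to 50 bases after the start site (RefSeq, GRCm38.p6, chr7:128062390-128062689, plus strand), with matches on either strand in capitals.
Itgam: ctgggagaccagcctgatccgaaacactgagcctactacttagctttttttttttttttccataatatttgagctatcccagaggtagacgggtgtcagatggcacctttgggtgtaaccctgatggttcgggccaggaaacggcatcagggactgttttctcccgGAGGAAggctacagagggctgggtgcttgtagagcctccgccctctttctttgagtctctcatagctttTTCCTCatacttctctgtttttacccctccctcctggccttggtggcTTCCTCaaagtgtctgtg
It held 3 matches that did not overlap, at -84, -15 and 33 relative to the start site. A match to GAGGAA was present in 28.3% of the 32851 RefSeq promoter windows of this length, so the match itself is common, and no binding was measured here.

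Itgax, which encodes the CD11c chain of dendritic cells and some macrophages, lay between 159.8 and 245 with PBS and between 291 and 493 with GLA-SE. GLA-SE tumor 2 was highest and the other 3 GLA-SE tumors were within 291 to 343, above the PBS range. Its log2 fold change was 0.92 (standard error 0.22, adjusted p = 0.00683), 0.02 over the panel median. The promoter windows of Itgax and Itga4 held no GAGGAA and no NF-kB consensus. No window was found for Itgb2, Itgal, Itgae, Vcam1 or Selplg in the promoter set used.

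How far each alpha subunit moved relative to Itgb2 was measured as the log2 ratio of deposited counts, which no scaling of a tumor can change. Itgam over Itgb2 was -2.73 ± 0.11 in PBS tumors and -2.34 ± 0.17 in GLA-SE tumors (SD, n = 4), a difference of 0.39 with no overlap. Itgal over Itgb2 went the other way, from 0.54 ± 0.08 to 0.25 ± 0.12, a difference of -0.29, again with no overlap. Itgax over Itgb2 differed by -0.26 with overlapping groups. The exact two-sided permutation test gave p = 0.0286 for Itgam and for Itgal, the smallest value 4 against 4 tumors allow, and 0.129 after adjustment over 9 ratio tests, so neither passed 0.05. In SE tumors both ratios were split: Itgal over Itgb2 was 0.55 and 0.75 in SE tumors 1 and 2, and -0.20 and -0.43 in SE tumors 3 and 4. Itgam over Itgb2 was -2.83 and -3.45 in the former pair and -2.07 and -1.78 in the latter. Neither ratio separated SE from PBS (exact permutation p = 0.343 for Itgal and 0.686 for Itgam).

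**Figure D2:**
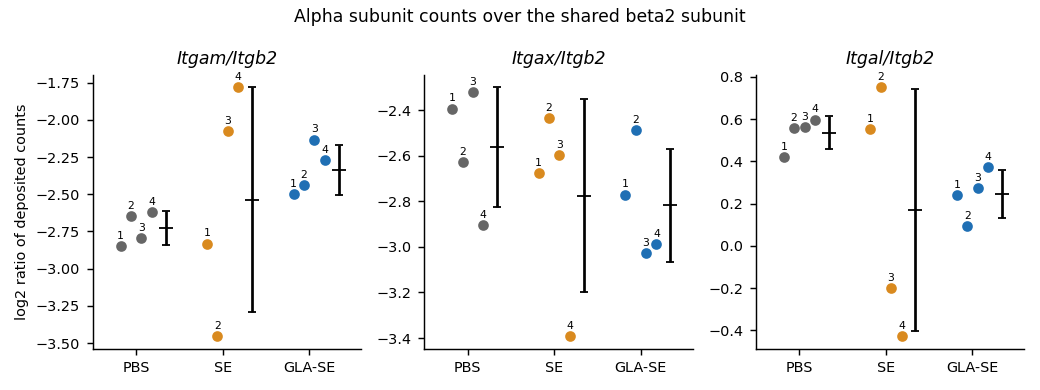
Log2 ratio of the deposited count of Itgam, Itgax or Itgal to that of Itgb2 (vertical axes) in each tumor of the 3 groups. Points are tumors with replicate numbers and bars are the mean ± SD (n = 4). GLA-SE tumors lie wholly above PBS tumors for Itgam and wholly below for Itgal, while SE tumors spread over both.

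Outside the beta2 family, Itga4 encodes the alpha4 chain that binds VCAM-1. PBS tumors held 207, 163, 175 and 253 counts and GLA-SE tumors 574, 448, 457 and 374. GLA-SE tumor 4, the lowest, was still above PBS tumor 4, the highest. Its log2 fold change was 1.22 (standard error 0.19, adjusted p = 0.00106). Itgae, which encodes CD103 of tissue-resident T cells and of a subset of dendritic cells, was counted at 51.2, 31.8, 30.7 and 35.0 with PBS and 82.2, 98.8, 80.6 and 53.2 with GLA-SE. Here the groups nearly met, at 51.2 and 53.2. The log2 fold change was 1.08 (standard error 0.26, adjusted p = 0.00675), and Itgae was the member that lost its call when all 12 tumors shared a single fit.

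Icam1, the ligand of LFA-1 and Mac-1 on endothelium, B cells and myeloid cells, was at 766, 658, 661 and 796 in PBS tumors and at 1480.4, 2161, 2779 and 1577 in GLA-SE tumors. The PBS tumors were close together and the GLA-SE tumors were spread over a 1.88-fold range. The log2 fold change was 1.47 (standard error 0.21, adjusted p = 0.000538). ICAM-1 is a textbook target of NF-kB, and its promoter window is shown for GGAAATTCC, a core shared by some NF-kB elements, in capitals (RefSeq, GRCm38.p6, chr9:21015690-21015989, plus strand).
Icam1: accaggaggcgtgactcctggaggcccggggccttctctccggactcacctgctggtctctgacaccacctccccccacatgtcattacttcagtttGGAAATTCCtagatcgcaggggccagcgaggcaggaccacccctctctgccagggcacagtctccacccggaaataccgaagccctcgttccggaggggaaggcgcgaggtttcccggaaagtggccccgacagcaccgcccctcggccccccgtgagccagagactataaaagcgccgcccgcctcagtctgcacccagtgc
The match lay on the plus strand and began at -153 from the start site. A match to GGAAATTCC on either strand was present in 104 of 32851 windows (0.317%). It was searched for after the strict NF-kB consensus, present in 4.51% of windows, had matched none of the windows of Itgam, Itgax, Itga4 and Icam1. Because it was picked in that order, its share is no test of the match. GGAAATTCC was absent from the windows of Itgam, Itgax and Itga4. The match is a description of the sequence, and binding was not measured.

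Vcam1, the ligand of alpha4 integrins, had the largest fold change of the 9. It was at 773, 518, 756 and 655 with PBS and at 2145, 2317, 3465 and 1286 with GLA-SE, so the lowest GLA-SE tumor held less than the other 3 but more than any PBS tumor. Its log2 fold change of 1.77 (adjusted p = 0.00106, standard error 0.28) was 0.87 over the panel median and ranked 95 of 750. Selplg, which encodes PSGL-1, went from 826, 498, 573 and 727 to 1425, 1463, 2208 and 1527. GLA-SE tumors 1, 2 and 4 lay within 1425 to 1527, and tumor 3 was above them, and the log2 difference came to 1.34 (standard error 0.21, adjusted p = 0.000887).

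All 9 calls held whichever of the 8 tumors was left out, in fits where 440 to 501 of the 750 genes were called higher. The exact permutation test of each gene alone gave p = 0.0286, its smallest possible value, which became 0.0551 after adjustment over the 27 tests of 9 genes in 3 comparisons.

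The size and the number of these rises depended on what the tumors were scaled to. The panel median log2 fold change was 0.90 with the reference genes, 0.61 without rescaling, 0.10 with TMM, 0.05 with median-of-ratios size factors and -0.40 with the panel median as the scale. Itgam, Itgb2, Icam1, Vcam1 and Selplg were called higher with TMM and with size factors, whereas Itgal, Itgax, Itgae and Itga4 were not. Over the 750 genes, 189 were higher and 143 lower with TMM, and 173 and 153 with size factors. With panel median scaling the log2 fold changes ran from -0.41 for Itgal, the single call (adjusted p = 0.0135), to 0.44 for Vcam1. Relative to the panel median of the reference-scaled fit, Itgam lay 0.67 above, Icam1 0.57, Selplg 0.43, Itga4 0.32, Itgb2 0.27 and Itgae 0.18.

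**Figure D3:**
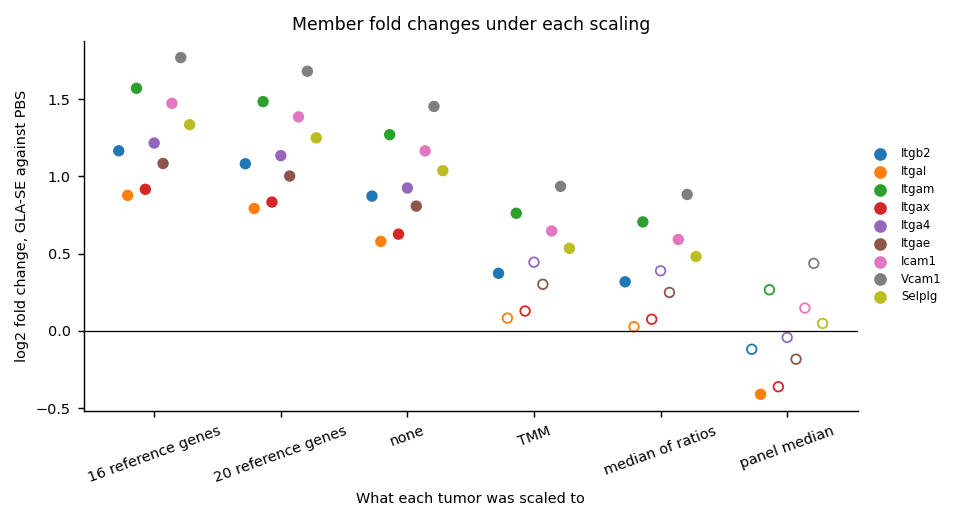
Log2 fold change of each of the 9 genes in GLA-SE against PBS tumors (vertical axis) by what the tumors were scaled to (horizontal axis, median of ratios being the size factors of DESeq2). Filled points have an adjusted p under 0.05 (edgeR). All 9 are filled above 0 with 16 or 20 reference genes and without rescaling, 5 with TMM or size factors, and none above 0 with the panel median, where Itgal is filled below 0.

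Emulsion alone left no member called against PBS. The background was 0% of 750 genes called, although 134 genes had an unadjusted p under 0.05. Among the 9, Vcam1 did (log2 fold change 0.69, 95% interval 0.10 to 1.28, unadjusted p = 0.0272, adjusted p = 0.256 with edgeR). DESeq2's test, limma and the methods' t-test also called 0 of the 9. Vcam1 was at 643, 1061, 1279 and 1384 in SE tumors, the first of which lay inside the PBS range and the other 3 above it. Other intervals were wide: that of Itgam reached from -0.57 to 2.12 and that of Selplg from -0.55 to 1.77.

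The SE tumors were widely spread. Itgam was at 139, 74.6, 385 and 567, Selplg at 521, 406, 962 and 2122, Itga4 at 163, 203, 254 and 664, and Itgae at 22.0, 31.7, 62.3 and 149. SE tumors 3 and 4 were higher than SE tumors 1 and 2 in each, and the highest tumor held 7.60 times the lowest for Itgam, 6.79 times for Itgae, 5.23 times for Selplg and 4.07 times for Itga4. Itgb2 was spread less, at 991, 818, 1620.5 and 1949. Without SE tumor 4 the log2 fold change fell from 0.78 to 0.23 for Itgam, from 0.81 to 0.04 for Itgae, from 0.68 to 0.05 for Itga4 and from 0.61 to -0.06 for Selplg. It went from 0.26 to 0.02 for Itgb2, from 0.31 to 0.13 for Icam1 and from 0.69 to 0.56 for Vcam1, and was -0.20 for Itgal and -0.01 for Itgax. None of the 9 was called without that tumor, as 0 of the 750 genes were.

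Itgal was the exception. It was at 1453, 1377, 1412 and 1448 in SE tumors, a mean of 1423 ± 35.5 (SD, n = 4), with the highest tumor 1.06 times the lowest. Its deposited counts ran from 718 to 2182 in the same tumors, so the evenness was of the scaled values. All 4 SE tumors lay below all 4 PBS tumors, which was the case for 1.2% of the panel. The groups nearly met, at 1453 in SE tumor 1 and 1462 in PBS tumor 2. The log2 fold change was -0.19 (95% interval -0.46 to 0.08, adjusted p = 0.304). Icam1 was at 716, 700.3, 940.4 and 1212, with a log2 fold change of 0.31 (95% interval -0.16 to 0.78), and Itgax at 151 to 268, with -0.02 (95% interval -0.68 to 0.64).

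**Figure D4:**
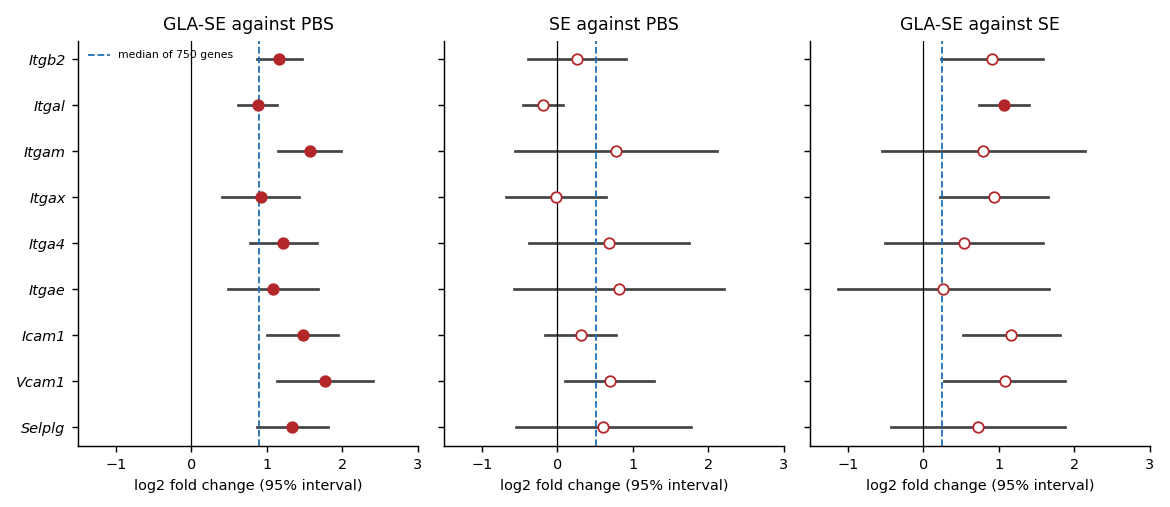
Log2 fold change with its 95% interval (horizontal axes) of the 9 genes in GLA-SE against PBS, SE against PBS and GLA-SE against SE tumors, scaled to reference genes. Filled points have an adjusted p under 0.05 (edgeR, 750 genes), and the dashed line is the median of the 750. All 9 are filled in the first panel, none in the second and Itgal in the third.

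GLA-SE tumors were also compared with tumors given the emulsion alone. The labels give the emulsion percentage and volume for GLA-SE and not for SE, so equal amounts of emulsion cannot be assumed. Itgal was higher in GLA-SE tumors, with a log2 fold change of 1.07 (95% interval 0.73 to 1.40, adjusted p = 0.0110), and was the single member called, against 2.13% of the panel. All GLA-SE tumors lay above all SE tumors for Itgal, Itgax, Itgb2 and Icam1, as for 14.7% of the panel. The log2 fold change was 1.16 for Icam1 (adjusted p = 0.0802), 1.08 for Vcam1 (0.156), 0.93 for Itgax (0.156) and 0.91 for Itgb2 (0.156), none of which passed. It was 0.80 for Itgam (0.557), 0.73 for Selplg (0.530), 0.53 for Itga4 (0.624) and 0.26 for Itgae (0.888), where SE tumor 4 lay within or above the GLA-SE tumors. All 9 values were above the panel median of 0.25.

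The call of Itgal in this comparison was lost when GLA-SE tumor 2, GLA-SE tumor 4 or SE tumor 3 was left out, in 3 of 8 such fits, with an edgeR adjusted p of at most 0.0531. In each of those 3 fits 4 of the 750 genes were called. Without SE tumor 4, 5 members were called, namely Itgal, Itga4, Itgb2, Icam1 and Selplg, with adjusted p from 0.0144 to 0.0362, but the panel's calls also went up, from 16 to 104 higher of 750, and its median log2 fold change from 0.25 to 0.63. The log2 fold changes were then 1.34 for Itgam, 1.40 for Selplg, 1.16 for Itga4 and 1.04 for Itgae, 1.35 for Icam1, 1.21 for Vcam1, 1.14 for Itgb2, 1.08 for Itgal and 0.92 for Itgax. With TMM, size factors or the panel median as the scale no member was called, where 3, 3 and 0 of the 750 genes were.

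The panel held 28 of 32 other adhesion genes listed for comparison. In GLA-SE against PBS tumors, 19 of the 28 were higher and none lower, where 68.4% of the panel was higher. Their median log2 fold change was 0.89 against 0.90 over the panel. GLA-SE tumors lay wholly above PBS tumors for 17 of the 28, and for 63.7% of the panel. Sele, the selectin of activated endothelium, was at 28.1, 60.3, 105 and 58.3 with GLA-SE and at 10.2 to 17.1 with PBS (log2 fold change 2.28, SE 0.40, adjusted p = 0.00153). Itgb1, the beta1 partner of Itga4, rose by 0.57 (standard error 0.10, edgeR adjusted p = 0.00166), which was under the panel median of 0.90. Amica1, a junctional adhesion molecule of leukocytes, rose by 1.82 (standard error 0.21, adjusted p = 0.000239). Glycam1, a mucin-like adhesion ligand, had the largest value, 3.31 (standard error 1.04, adjusted p = 0.0200), but its GLA-SE tumors, at 1121, 251, 70.7 and 26.6, overlapped the PBS range of 24.1 to 49.5. With TMM, 4 of the 28 were higher and 2 lower (189 and 143 of 750 over the panel). With the panel median 1 was higher and 10 lower (61 and 307 over the panel).

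None of the 28 was called in SE against PBS, where 6 had an unadjusted p under 0.05 and DESeq2's test called 3 higher, or in GLA-SE against SE, where 3 had an unadjusted p under 0.05 and DESeq2's test called 1 higher and 2 lower. In SE tumor 4, Glycam1 was at 9172, against 9.96 to 11.99 in the other SE tumors.

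Markers of other cells were counted too, in a panel of which 68.4% was called higher in GLA-SE than in PBS tumors. The summed count of 9 monocyte and macrophage markers was 2723 to 3946 in PBS tumors and 8820 to 19303 in GLA-SE tumors, with 9 of 9 called higher. The 19303 was GLA-SE tumor 3, and the other 3 GLA-SE tumors reached 10408. In SE tumors the sum reached from 2189 to 18328, highest in tumors 3 and 4, where Itgam and Itgb2 were highest too. Itgal did not follow it in the SE tumors, staying at 1377 to 1453. Of 9 neutrophil markers 5 were higher with GLA-SE (sums of 540 to 603 with PBS, 1728 to 12049 with GLA-SE and 388 to 1497 with SE), although Ltf, Camp and Elane were under 20 in most tumors, as were Marco, Klrb1c and Lamp3 of the other lists. The neutrophil sum of 12049 was GLA-SE tumor 3 as well, with the other 3 GLA-SE tumors at 1728 to 3744.

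**Figure D5:**
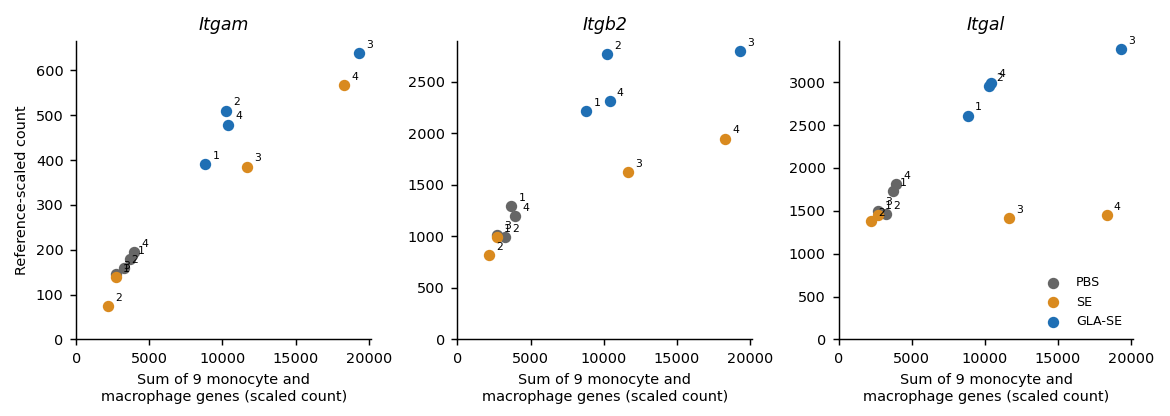
Reference-scaled count of Itgam, Itgb2 and Itgal (vertical axes) against the summed scaled count of 9 monocyte and macrophage markers (horizontal axes) in the 12 tumors, numbered by replicate. SE tumors 3 and 4 lie with the GLA-SE tumors on the horizontal axis, and for Itgal they stay at 1412 and 1448.

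Of 8 T cell markers 4 were higher with GLA-SE (sums of 790 to 2397 with PBS, 2362 to 3332 with GLA-SE and 709 to 4734 with SE), and of 5 natural killer cell markers 3 (254 to 633, 903 to 1021 and 283 to 767). All 5 endothelial markers were higher (413 to 607, 775 to 1489 and 370 to 2973), as were all 4 fibroblast markers (3453 to 8275, 17059 to 24330 and 2831 to 115926), while 1 of 5 dendritic cell markers was (653 to 872, 1196 to 5025 and 853 to 1632). That marker was Ccr7, with a median of 234 in PBS and 865 in GLA-SE tumors. Flt3 had medians of 488 and 518, and neither it nor Xcr1, Cd207 or Lamp3 was called, so the sum does not describe the whole list. GLA-SE tumor 3 held the dendritic cell sum of 5025, with the other 3 GLA-SE tumors at 1196 to 1523. Of the 8 B cell markers none was higher and 2 were lower (19895 to 23283, 16449 to 19143 and 14090 to 22665). The shares called higher in the neutrophil, T cell, natural killer cell, dendritic cell and B cell lists were below the 68.4% of the panel. No marker of these lists was at 0 throughout a group. The part of these cells in the results on the 9 genes was not tested.

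The genes whose profile over the 12 tumors was most like each member's were found by the root mean square difference of centred log2(scaled count + 1), as a description. Itgb2 was nearest to Tnfrsf14 (0.13) and Il18rap (0.16), and Icam1 to Il2rg and Jak3 (0.15 each). Itgam was nearest to Fcer1g (0.19) and Ifitm2 (0.20), and Selplg to Ikbke (0.18) and Ifih1 (0.21). Itgae was nearest to Eng (0.18) and Vegfc (0.24), Itga4 to Il10ra (0.21) and Ifnar2 (0.25), and Itgax to Bst2 (0.24) and Pdcd1lg2 (0.27). Tlr1 was among those near Itgal (0.21). Vcam1 had no close neighbour on this measure, its nearest being Cd86 and Icam1 (0.31 each), the latter the only case of a member beside a member. The median distance of a member to all other genes was 0.54 to 0.71, and all 12 points share the scaling of their tumor.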

How the data were processed

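RNA of 12 tumors was measured on the nCounter panel. The authors deposited 1 table of counts, whole numbers of barcoded probes per gene and tumor. Their methods name normalization in nSolver, but totals and reference genes differed between tumors in the deposited table, so the counts were treated as not normalized. No alignment is involved.

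From 20 reference genes, the geNorm procedure over all tumors kept 16, leaving out Alas1, Eef1g, G6pdx and Gusb. The other 750 genes were tested with edgeR 4.0.16 (R 4.3.3) in 2-group quasi-likelihood fits, tumors scaled to the 16, with Benjamini-Hochberg adjustment and a threshold of 0.05. No low-count filter was set, and 88 genes were under 20 counts in most tumors. A standard error is the absolute log2 fold change over the square root of the F statistic. Ratios and single genes were tested by exact permutation of tumors. Precision is limited by the counts and by 4 tumors a group. The script was tested on simulated counts. Alternatives were other scalings, a low-count filter, limma 3.58.1, DESeq2 1.42.0, the methods' t-test, a fit of all tumors, a replicate block and leaving out each tumor.

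All 9 members were named. Of the other adhesion genes, Itgb1 and Sele were named by rule, with the 3 largest called changes in either direction, and the 2 nearest profiles of each member. Epcam was named after its values were seen. Some named items are not reported here. The members and lists were chosen with earlier results of these data known. By symbol, 754 of 770 genes matched RefSeq names of GRCm38.p6, 8 matched by synonym and 8 did not.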

Additional observations from a re-analysis of the deposited data

Results flagged for a closer look

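Selplg in GLA-SE tumor 3 was at 2208 scaled counts, while the other 3 GLA-SE tumors were at 1425 to 1527, a gap large enough to set it apart from its group by Dixon's test. This was the single such tumor in 27 groups searched (9 genes in 3 groups), where chance would give 1.35. GLA-SE tumor 3 was the highest of its group by panel median too. The median scaled count of the 750 genes was 471 there, and 323 to 372 in the other 3 GLA-SE tumors. Without that tumor all 9 members were still called higher in GLA-SE than in PBS tumors, as were 483 of the 750 genes.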

How the results depend on the processing

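In GLA-SE against PBS, 5 of the 9 members were higher with TMM, 5 with DESeq2 size factors and 0 with panel median scaling, under which 1 was lower. Of the other adhesion genes, 4 were higher and 2 lower with TMM, 4 and 3 with DESeq2 size factors, 1 and 10 with the panel median, and 5 were higher when all 12 tumors shared a fit. Over the panel, 513 genes were higher and 3 lower with the reference genes, 189 and 143 with TMM, 173 and 153 with DESeq2 size factors, 61 and 307 with the panel median, 351 and 17 without rescaling, and 255 and 0 in the shared fit. In SE against PBS, 0 genes of the panel were called, against 47 higher and 6 lower with DESeq2's test and 1 with the methods' t-test.

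In GLA-SE against SE, the count of members called higher was 1, and 0 with TMM, 0 with DESeq2 size factors, 0 with the panel median, 3 without rescaling (Itgb2, Icam1 and Vcam1), 5 with DESeq2's test and 5 in the shared fit (Itgax, Itgal, Itgb2, Icam1 and Vcam1 in both), and 0 to 5 when a tumor was left out. The panel's calls moved too, from 16 higher to 88 without rescaling, 101 with DESeq2's test, 77 in the shared fit and 104 without SE tumor 4. The other adhesion genes called higher were 0, against 1 with DESeq2's test, 1 in the shared fit, 2 without rescaling and 0 to 4 when a tumor was left out, and DESeq2's test called 2 lower. In SE against PBS, DESeq2's test called 3 of them higher.

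Panel median scaling turned the log2 fold change in GLA-SE against PBS to -0.0425 for Itga4, -0.18 for Itgae, -0.41 for Itgal, -0.36 for Itgax and -0.12 for Itgb2, in GLA-SE against SE to -0.0260 for Itga4 and -0.17 for Itgae, and in SE against PBS to -0.16 for Icam1, -0.0163 for Itga4, -0.0133 for Itgae, -0.0786 for Itgam, -0.30 for Itgb2 and -0.18 for Selplg. In SE against PBS it also turned with TMM (Icam1 -0.0691, Itgb2 -0.17), DESeq2 size factors (Icam1 -0.0841, Itgb2 -0.19, Selplg -0.0159), no rescaling (Icam1 -0.13, Itgb2 -0.22, Selplg -0.0477) and reference genes chosen within the comparison (Itgax 0.00747). Leaving out a tumor gave -0.23 to 0.12 for Itgax and -0.0610 to 0.87 for Selplg in SE against PBS, and -0.0309 to 1.04 for Itgae in GLA-SE against SE. The ratios to Itgb2 then ran, in GLA-SE against SE, from -0.11 to 0.45 for Itgam, -0.25 to 0.0705 for Itgax and -0.12 to 0.27 for Itgal, and from -0.0599 to 0.50 for Itgam in SE against PBS. The cause was not tested for any of these.

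Samples with the same replicate number did not deviate together (correlations over genes of -0.25 to 0.18). The labels name no pairing, and these correlations, each between single tumors, cannot exclude one. With the replicate number as a block, 9 members were higher in GLA-SE against PBS, 0 in SE against PBS and 0 in GLA-SE against SE. Over the panel of 750 that fit called 437 higher and 2 lower in GLA-SE against PBS, and 0 in either other comparison. Of the 750 genes, 88 were under 20 counts in most tumors, where counting error is large.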
